A study of Mus musculus with 3 samples.

Results

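The genes described here encode the MHC class II antigen presentation machinery. They are 7 of the 28692 gene IDs in the count table, chosen by name: Cd74, H2-Aa, H2-Ab1, H2-Eb1, H2-DMa, H2-DMb1 and Ciita. All 7 were found in the table, and all 7 passed the filter on low counts of the test below. H2-DMb1 has a near-identical neighbour, H2-DMb2, so the split of reads between that pair is uncertain. In build GRCm38.p6, H2-DMa (34119693 to 34139101), H2-DMb1 (34153191 to 34160229), H2-Ab1 (34263227 to 34269418), H2-Aa (34282744 to 34287823) and H2-Eb1 (34305867 to 34316674) lie in 1 stretch of chromosome 17, Ciita on chromosome 16 (10480014 to 10531064) and Cd74 on chromosome 18 (60803849 to 60812652).

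MHC class II molecules are pairs of an alpha and a beta chain that display peptides from taken-up proteins to CD4 T cells. The invariant chain, encoded by Cd74, blocks the peptide groove until the complex reaches the endosome, where H2-DM exchanges the remaining fragment of the invariant chain for peptide. The co-activator encoded by Ciita has no DNA-binding domain of its own and works through factors bound to conserved promoter elements named S, X and Y. Dendritic cells, B cells and macrophages are the blood cells best known for class II, and dendritic cells arise from marrow progenitors that also give monocytes.

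The cells came from bone marrow of wild-type C57BL/6 mice, and no other genotype or treatment was included. Hindlimb marrow was enriched for CD117, the receptor Kit, and sorted as a population the labels call modified GMP, GMP being the usual abbreviation of granulocyte-monocyte progenitor. The labels do not state the age of the mice, their number per library or the sort gate. CITE-seq counts transcripts as unique molecular identifiers (UMIs) and antibody-bound tags in the same cells; 1 female and 1 male 10x 3' v2 library were made, and 10000 cells were loaded per sample. The authors assigned 11132 cells (4336 female, 6796 male) to 17 clusters. They named 33 cells DC, 11 female and 22 male. The comparators were MDP (100 and 136 cells), cMoP (39 and 97), Mono (450 and 602) and HSCP-2 (256 and 290), with the female number first here and below. The labels do not spell these names out. Enrichment for CD117 and the sort decide which cells were collected, so the DC cells need not stand for dendritic cells of the marrow at large.

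Depth per cell differed between the clusters. The median DC cell held 9030 (female) and 7745.5 (male) UMIs. HSCP-2 was as shallow, with 8298.5 and 7140.5, while Mono cells held 24366.5 and 20305. Levels are therefore given as CPM, the UMIs of a gene per 1000000 UMIs of the cluster in that library. Shares of cells with a UMI are given with depth made equal. In all, 45 cell barcodes occurred in both libraries. One of these was a male DC cell with 293 Cd74 UMIs, whose female namesake was an IG2 cell with 6.

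The name DC was checked against 10 markers of conventional dendritic cells, of which 8 were detected in DC in each library. In Mono 8 and 9 of the 10 were detected and in the other comparators 5 to 7, so detection alone did not set DC apart from Mono. The summed level of the 10 was 1953 and 1485 CPM in DC, against 16.4 to 87.4 CPM in the comparators. Id2 alone gave 1174 and 948 CPM of the DC sums. Batf3, Xcr1, Cd209a and Clec9a stood at 66.5 to 221 CPM in DC and at most 2.38 CPM in a comparator. Flt3 did not set DC apart from HSCP-2, with 77.0 and 61.0 CPM in DC and 70.8 and 64.7 CPM in HSCP-2. Clec10a and Ccr7 were at 0. Of 9 B cell markers 2 were detected in DC, Cd79b and Ighm, while Cd79a, Ms4a1, Ebf1 and Pax5 were among those at 0, and their sum of 452 and 299 CPM compares with 88.7 to 350 CPM in the comparators. Of 9 plasmacytoid dendritic markers, 4 and 3 were detected in DC. The 9 summed to 115 and 61.0 CPM there, beside 21.7 to 103 CPM in the comparators. Siglech was at 0 in DC, as in every comparator sum but that of male MDP. In the test below, 1 of the 4 tested, Cd300c, was called higher in DC in all 4 comparisons, and none was lower. The 8 macrophage markers summed to 38.5 and 16.6 CPM in DC, with 2 and 3 detected, and to 7.27 to 36.1 CPM in the comparators. The 8 granulocyte markers were all detected in DC and in every comparator. They summed to 9880 and 7804 CPM in DC, 9320 and 7447 CPM in HSCP-2 and 17088.5 to 26943 CPM in MDP, cMoP and Mono. The 8 monocyte markers summed to 1501 and 1613 CPM in DC, as high as the dendritic list. In MDP, cMoP and Mono they summed to 1878 to 5897 CPM, and in HSCP-2 to 235 and 254 CPM. In the test below, 4 of the 8 were called higher and 3 lower in DC than in MDP, and 1 and 3 than in cMoP. Against Mono the counts were 3 and 3, and against HSCP-2 5 and 0. Over all genes tested, 7.89%, 6.05%, 7.83% and 7.89% were called higher, and 9.89%, 8.71%, 11% and 8.12% lower. Ccr2 was called higher in every comparison, and the genes called lower than in MDP, cMoP and Mono were Csf1r, F13a1 and Ly6c2.

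The class II promoters share short elements, and 3 are shown because they carry these elements at similar places ahead of genes that were all high in DC. RefSeq's table of promoters (build GRCm38.p6, 250 bases before to 50 after each gene start) lists 4 of the 7 genes: H2-Aa, H2-Eb1, H2-DMa and H2-DMb1. Each line gives the 130 bases before the gene start, 5' to 3' on the gene's strand. Capitals mark an X-like motif (AACNNATGATGC), the palindrome TGACGTCA, or the Y motif GATTGG, which reads CCAATC on the other strand.
H2-Aa, chr17:34287824-34287953, minus strand: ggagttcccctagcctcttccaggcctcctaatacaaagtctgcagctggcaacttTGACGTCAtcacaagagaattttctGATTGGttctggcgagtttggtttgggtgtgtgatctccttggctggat
H2-Eb1, chr17:34305737-34305866, plus strand: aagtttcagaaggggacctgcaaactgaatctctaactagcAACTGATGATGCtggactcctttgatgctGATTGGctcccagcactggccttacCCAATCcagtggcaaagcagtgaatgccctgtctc
H2-DMb1, chr17:34153061-34153190, plus strand: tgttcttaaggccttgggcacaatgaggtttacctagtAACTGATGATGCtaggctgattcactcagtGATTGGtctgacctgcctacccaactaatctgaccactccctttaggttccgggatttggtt
In H2-Eb1 and H2-DMb1 the X-like match was AACTGATGATGC, followed 17 and 18 bases later by GATTGG. H2-Aa held no X-like match, but TGACGTCA stood 17 bases before its GATTGG. The same order was found before 2 related genes: in H2-DMb2 (AACCGATGATGC) 18 bases separated the motifs, and in H2-Ob (AACAAATGATGC) 15. Of 32851 promoter windows of 300 bases, searched on both strands, 0.0396% held AACNNATGATGC, 1.79% held TGACGTCA and 16.1% held GATTGG. Both AACNNATGATGC and GATTGG occurred in 6 windows, 4 of them those of H2-Eb1, H2-DMb1, H2-DMb2 and H2-Ob. The X-like letters are the 12 bases best shared by H2-Eb1, H2-DMb1, H2-DMb2 and H2-Ob, genes picked after their sequences had been read, so these shares describe the windows and test nothing. H2-Oa and the second H2-DMa window held GATTGG without either of the other motifs, and the first H2-DMa window held none of them.

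Cd74, the invariant chain, was found mainly in DC. Its level there was 31766 (female) and 25818 CPM (male) (28792 ± 4206, SD, n = 2), and DC held 74.6% of all Cd74 UMIs. Over the 32 other combinations of cluster and library the median was 6.47 CPM, and the lowest was 0 in female Myelo-4, where 3 UMIs would have been 15.7 CPM. The highest, 1599 CPM in male HSCP-1, lay below both DC values, so DC did not overlap any other cluster. Next in order came HSCP-1, Myelo-1, HSCP-2 and Myelo-3, whose 2 libraries overlapped those of their neighbours.

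The 3 classical chains followed the same order at the top. H2-Aa, the alpha chain of I-A, stood at 11179 and 8026 CPM in DC (9602 ± 2229), against a median of 3.02 CPM elsewhere. H2-Ab1, its beta chain, stood at 13189 and 10420 CPM (11805 ± 1958), against 18.9 CPM. H2-Eb1, the beta chain of I-E, stood at 6773 and 4805 CPM (5789 ± 1391), against 1.57 CPM. DC was above every other cluster in both libraries for each chain, and HSCP-1 was second for each. In female HSCP-1 H2-Eb1 had no UMI, and in the male library all of its 29 UMIs lay in 1 cell.

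H2-DMa and H2-DMb1, the chains of the peptide exchanger, were high in DC but present in most clusters. H2-DMa reached 1049 and 892 CPM in DC (970 ± 110), and H2-DMb1 962 and 770 CPM (866 ± 135). DC held only 1.45% of the H2-DMa UMIs and 3.80% of the H2-DMb1 UMIs of the data. Below DC, H2-DMa ran from HSCP-1 (327 and 241 CPM) through HSCP-2 (212 and 201), cMoP (175 and 221), MDP (174 and 178) and Multi-Lin (160 and 154) to Mono (135 and 141). HSCP-2, cMoP and MDP overlapped their neighbours in this order, whereas Multi-Lin and Mono did not. Gran-2, with 28.8 and 29.8 CPM, and Myelo-2, with 14.8 and 14.9 CPM, were among the lowest clusters. For H2-DMb1, cMoP came second with 76.3 and 60.5 CPM, above Mono with 46.2 and 49.98 CPM without overlap. HSCP-2 (40.5 and 35.3), MDP (35.4 and 38.3) and MP (32.6 and 35.4) overlapped.

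Ciita, the class II co-activator, was rare everywhere else. It gave 7 and 13 UMIs in DC, which is 67.3 and 72.1 CPM (69.7 ± 3.33), and 16 UMIs in all other cells together. No Ciita UMI was found in 23 of the 32 other combinations, and the highest of the rest was 0.427 CPM in female HSCP-2. In Multi-Lin 1 and 5 UMIs were counted, in Myelo-1 2 and 2.

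**Figure D1:**
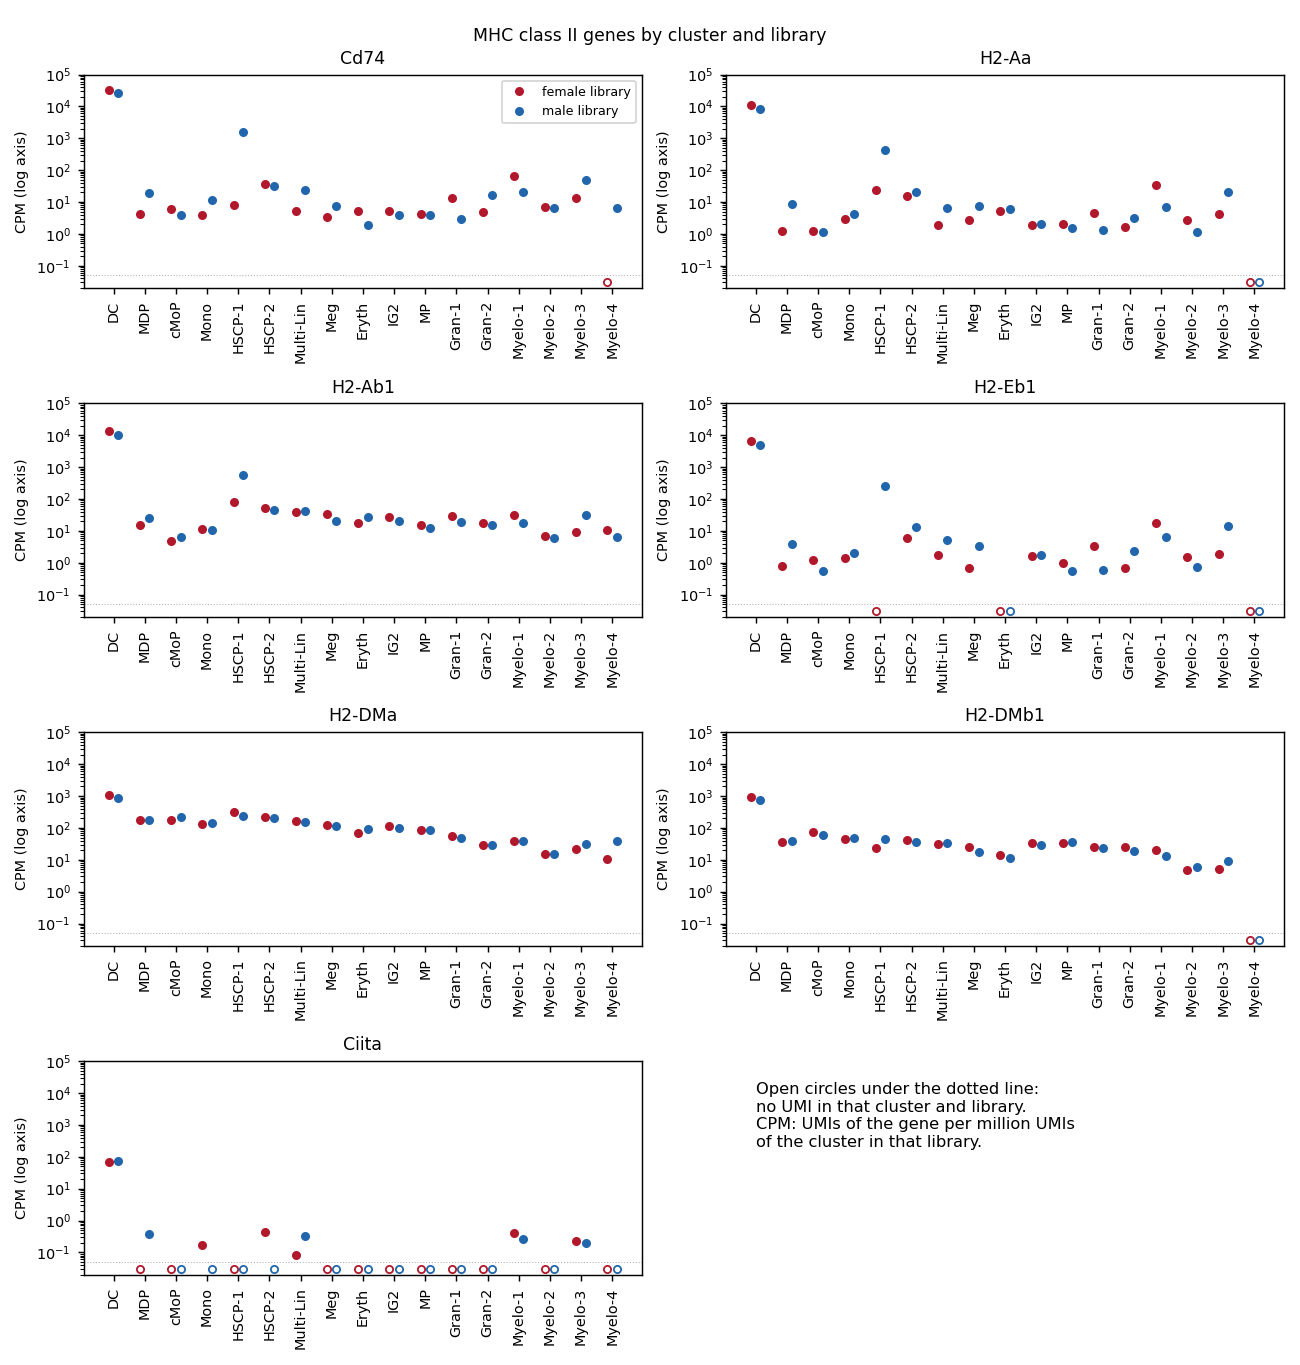
CPM of each gene (log axis) in the 17 clusters, 1 point per library (red female, blue male); open circles mark combinations without a UMI. For all 7 genes both DC points lie above every other point, by the smallest distance for H2-DMa.

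The 4 comparisons asked how DC differed from the clusters whose names place them nearest in the monocyte and dendritic lineages and from the progenitor cluster HSCP-2. They share the DC sums, so they are not independent of each other. The clusters themselves come from the same transcripts, so a call describes a cluster and is no separate evidence for it. UMIs were summed per library and cluster, and 10 sums were fitted together with edgeR's quasi-likelihood test; a gene was called at an adjusted p below 0.05 over all 10011 genes tested. Against MDP 7 of 7 genes were called higher in DC, where 7.89% of all genes tested were. Against cMoP the count was 7 of 7, beside 6.05% of all genes. Against Mono it was 7 of 7 beside 7.83%, and against HSCP-2 7 of 7 beside 7.89%. The median log2 fold change of the 7 was 9.09, 10.92, 9.89 and 8.27 in that order, beside -0.28, -0.23, -0.30 and -0.31 over all genes. Both libraries showed a higher level in DC for every gene in every comparison. Ciita entered the test only through its DC sums, so its part in each 7 of 7 was fixed beforehand. The medians against cMoP and HSCP-2 were the values of Ciita itself.

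Cd74 was at 4.07 and 19.1 CPM in MDP, 5.96 and 3.998 in cMoP, 3.79 and 11.9 for the Mono cells and 35.8 and 31.5 for HSCP-2. The fitted log2 fold changes were 11.18 ± 0.09 (SE) against MDP, 12.49 ± 0.12 against cMoP, 11.65 ± 0.08 against Mono and 9.85 ± 0.08 against HSCP-2. These SEs rest on a spread shared over all genes and are smaller than the gap between the libraries: the log2 ratio to MDP was 12.93 for female and 10.40 for male cells. In male MDP 1 cell held 38 of the 50 Cd74 UMIs, and in male Mono 1 cell held 108 of 149. Without the cell richest in Cd74 of each cluster and library, an alternative chosen after seeing the data, the values became 12.69 against MDP and 12.81 against Mono, while cMoP gave 12.67 and HSCP-2 10.00.

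H2-Aa was at 1.22 and 8.42 CPM in MDP, 1.19 and 1.14 in cMoP, 2.999 and 4.07 for Mono cells and 15.8 and 20.6 for HSCP-2. Its fitted differences were 10.84 ± 0.12, 12.83 ± 0.15, 11.22 ± 0.10 and 9.14 ± 0.10 on the log2 scale. H2-Ab1 differed by 9.09 ± 0.09, 10.86 ± 0.12, 9.89 ± 0.08 and 8.04 ± 0.08 against MDP, cMoP, Mono and HSCP-2. H2-Eb1 stood at 0.814 and 3.83 CPM in MDP, 1.19 and 0.571 in cMoP, 1.41 and 2.08 for Mono and 5.97 and 13.03 for HSCP-2. It differed by 11.16 ± 0.14, 12.66 ± 0.18, 11.50 ± 0.12 and 9.34 ± 0.12. The libraries lay further apart than these SEs: the log2 ratios of H2-Eb1 were 13.02 (female) and 10.29 (male) to MDP and 10.15 and 8.53 to HSCP-2, and those of H2-Aa were 13.16 and 9.90 to MDP and 9.47 and 8.61 to HSCP-2. As for Cd74, removing the richest cells raised the values against MDP, to 13.04 for H2-Aa, 9.38 for H2-Ab1 and 13.02 for H2-Eb1. Against Mono it gave 11.88 for H2-Aa and 12.33 for H2-Eb1, and against cMoP 12.73 and 12.58. Whole-cluster ratios of H2-Aa in cMoP rest on 3 UMIs, and give a 7924-fold difference with an exact counting interval of 2709 to 38451.

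The peptide exchanger differed by far smaller factors. H2-DMa was 5.39-fold higher in DC than in MDP, 4.61-fold higher than in cMoP, 6.86-fold higher than in Mono and 4.60-fold higher than in HSCP-2 in pooled UMIs. The fitted log2 differences were 2.37 ± 0.13, 2.14 ± 0.13, 2.64 ± 0.13 and 2.32 ± 0.13. H2-DMb1 was 22.8-fold, 12.8-fold, 17.4-fold and 22.2-fold higher, with fitted log2 differences of 4.46 ± 0.17, 3.60 ± 0.16, 3.996 ± 0.15 and 4.60 ± 0.17. Whether these differences depart from those of the classical chains was not tested; the fitted values of the 2 groups of genes did not overlap in any comparison.

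Ciita could be compared only with near-empty clusters. MDP and HSCP-2 gave 1 UMI each, Mono 2 and cMoP none, from 5070231, 4724198, 23863069 and 2590183 UMIs. The ratio of pooled CPM was 357 (exact 95% counting interval 57.0 to 14780) against MDP, 839 (204 to 7405) against Mono and 332 (53.1 to 13771) against HSCP-2. Against cMoP Ciita was at least 60.7-fold higher in DC, taking 3 counts over the group as the limit that 0 allows. With the counting error of the DC count included, the exact lower limit was 45.0-fold. All 4 differences passed the edgeR test, the largest adjusted p being 5.01e-13. Ciita passed the filter on low counts through its DC sums alone, with at most 0.427 CPM in a comparator sum. A gene admitted in this way is bound to be higher in DC, so these calls add no support. These intervals, like the other counting intervals here, cover counting error only.

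**Figure D2:**
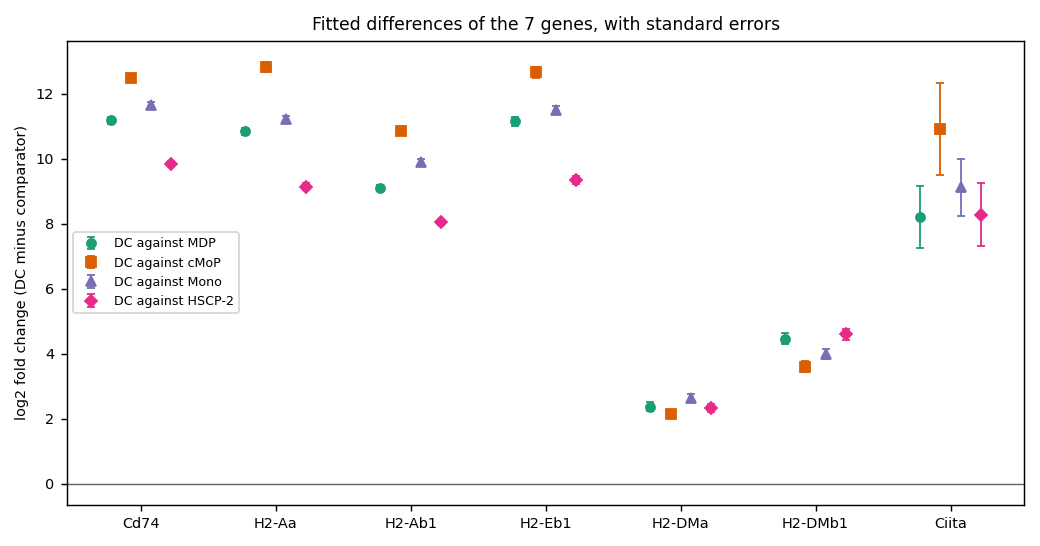
Fitted log2 fold changes, DC minus comparator, for the 7 genes (edgeR, 10 sums; bars are standard errors). The classical chains and Cd74 sit between 8.04 and 12.83, H2-DMa between 2.14 and 2.64, and H2-DMb1 between 3.60 and 4.60; the Ciita values depend on 0 to 2 comparator UMIs.

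Single DC cells were rich in class II transcripts except for a few male cells. Cd74 was detected in all 33, from 2 to 489 UMIs with a median of 246. The 11 female cells ran from 202 to 489 Cd74 UMIs. In the male library 3 cells held 2, 3 and 35, and these 3 had 0, 0 and 2 H2-Aa UMIs, 0, 1 and 3 H2-Ab1 UMIs and no H2-Eb1. UMIs of all 3 classical chains occurred in 30 of 33 cells (90.9%, Clopper-Pearson 95% interval 75.7% to 98.1%). Among these 30, Cd74 ranged from 10786 to 48334 CPM per cell, H2-Aa from 3526 to 16471 CPM and H2-Ab1 from 3350 to 18483 CPM. H2-DMa was found in all 33 cells, H2-DMb1 in 32 cells, and Ciita in 5 of 11 female and 9 of 22 male cells, with at most 3 UMIs in a cell.

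**Figure D3:**
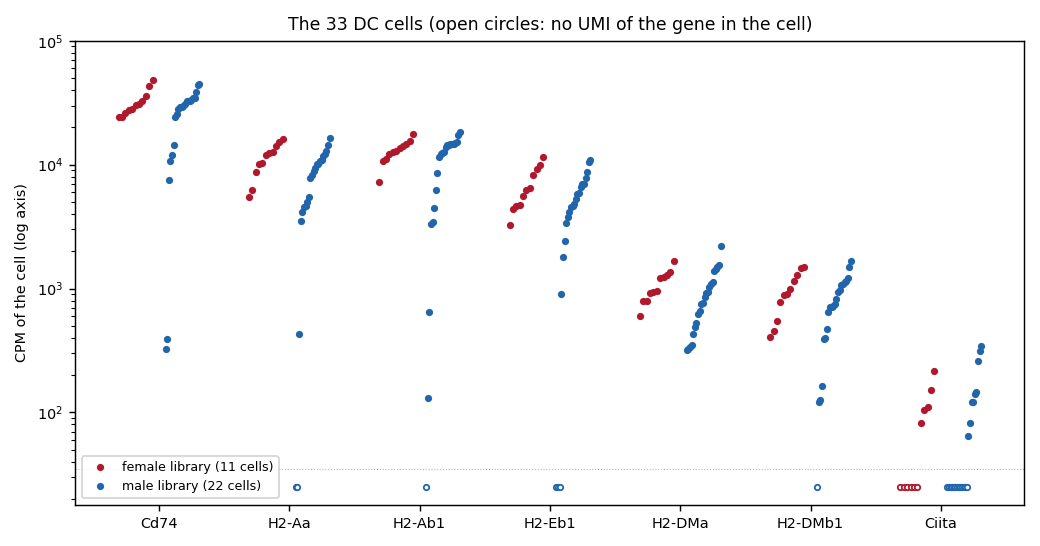
CPM of the 7 genes in each of the 33 DC cells (log axis), sorted within library (red female, blue male); open circles are cells without a UMI. The female cells lie close together, and 3 male cells fall away from the rest in Cd74 and the classical chains.

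Markers of dendritic subsets divided the DC cells, and the medians of Cd74, the classical chains and the H2-DM chains were lowest in the cells without them. Xcr1 or Clec9a, receptors of type 1 conventional dendritic cells, gave UMIs in 20 cells, with a median of 30574 CPM of Cd74 and 10832 CPM of H2-Aa. Cd209a, a lectin of type 2 and monocyte-derived cells, gave UMIs in 6 cells, 2 of which were also among the 20, with 28566 and 9403 CPM. The 9 cells with neither, 8 of them male, had medians of 25617 and 4998 CPM and included all 3 cells low in class II. Their H2-DMa median was 523 CPM, beside 993 CPM in the 20 cells, and their H2-DMb1 median 468 beside 981 CPM. Of the DC cells, 5 held at most 1 UMI of Irf8, a regulator of monocyte and dendritic fates, and their median Cd74 level was 35514 CPM, beside 29651 CPM in the other 28. The ranges of these groups overlapped, their differences were not tested, and the split by a UMI depends on depth, which was not tested. One male DC cell held 36 Mcpt8, 74 Prss34, 15 Cpa3 and 7 Ms4a2 UMIs, basophil and mast cell transcripts, together with 161 Cd74 UMIs. The list of these 4 genes was called higher in DC than in MDP, cMoP and Mono for 4 of 4, although it summed to 19.2 CPM in the female and 782 CPM in the male DC cells. The shares of all genes tested that were called higher in these comparisons were 7.89%, 6.05% and 7.83%.

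Outside DC, Cd74 and H2-Aa transcripts were concentrated in a few cells, whereas those of H2-Ab1 and H2-DMa were not. Of 11099 cells, 42 in 13 clusters had UMIs of H2-Aa, H2-Ab1 and H2-Eb1 together. Of these, 10 cells (2 female, 8 male) held 38 to 281 Cd74 UMIs each and 53.4% of the 2714 Cd74 UMIs found outside DC. The same 10 held 530 of the 1023 H2-Aa UMIs outside DC, but only 642 of 4755 H2-Ab1 UMIs and 74 of 18412 H2-DMa UMIs. They lay in 8 clusters: Myelo-1, Multi-Lin, Gran-1, HSCP-1, Myelo-3, Mono, Gran-2 and MDP. In 8 of the 10 the total UMI count was more than 1.5 times the median of their own cluster and library, and the totals ran from 12385 to 57675. All 10 also held UMIs of conventional dendritic markers, 3 to 19 each, beside a median of 12 in DC cells, and H2-DMa UMIs, and 5 held Ciita. Transcripts of other lineages were present in the same cells, with 8 to 580 UMIs of Elane, a neutrophil granule protease, and 18 to 4487 of S100a8. No doublet caller was run, and whether cells joined in 1 droplet account for them was not tested.

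Several cluster levels given above rest on such a cell. In male HSCP-1 1 of 10 cells held 172 of the 179 Cd74 UMIs, and without it the level fell from 1599 to 74.4 CPM. Female Myelo-1 fell from 67.5 to 9.57 CPM of Cd74 without 1 cell, and male Multi-Lin from 23.0 to 5.43 CPM. HSCP-2 changed little, from 35.8 and 31.5 to 29.9 and 28.7 CPM. It had 15 of the 42 cells, 5 female and 10 male (2.75% of its cells, exact interval 1.55% to 4.49%), and each held 0 to 14 Cd74 UMIs. These 15 cells held only 30.2% of HSCP-2's Cd74 UMIs, so in HSCP-2 a low level was spread over cells.

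**Figure D4:**
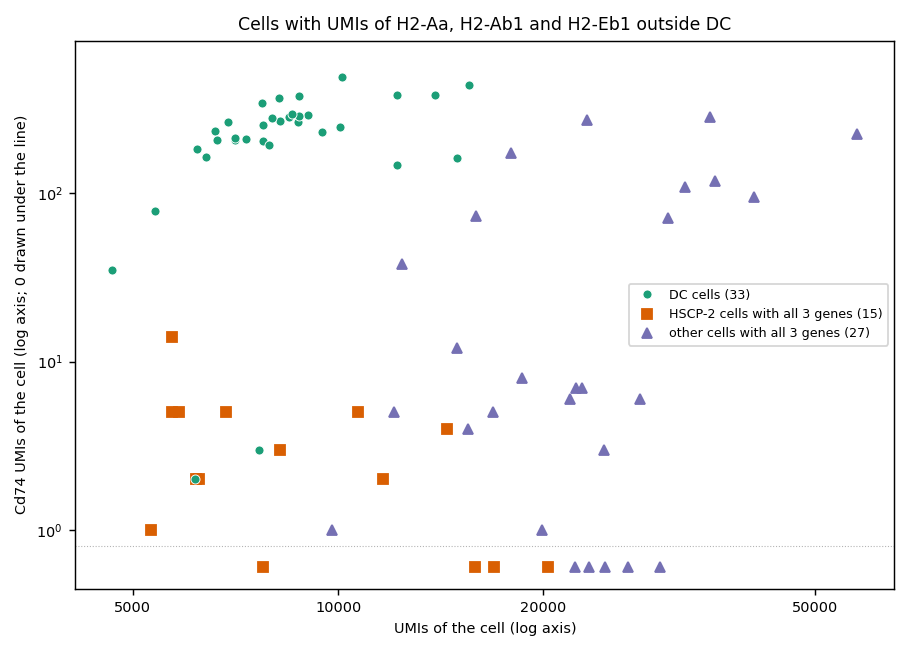
Cd74 UMIs against total UMIs per cell (log axes) for the 33 DC cells (circles) and the 42 cells outside DC with all 3 classical chains (squares HSCP-2, triangles other clusters); cells without Cd74 are drawn under the dotted line. The triangles between 38 and 281 Cd74 UMIs lie mostly to the right of the DC cells, at higher total UMIs, and the squares stay at 14 or fewer.

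With every cell reduced to 4000 UMIs, the shares of cells with a UMI separated the genes clearly. Cd74 was found in 100% of DC cells in both libraries, and the median over the 32 other combinations was 2.24%. In HSCP-2 12.1% and 9.31% of cells had a Cd74 UMI, against 1.00% and 3.68% in MDP, 0% and 1.03% in cMoP and 1.78% and 1.66% in Mono. Erythroid and granulocyte clusters served as background, with 0% and 0% in Eryth and 2.64% and 1.36% in Gran-1, so the Cd74 shares of cMoP and Mono lay within this range. The male MDP share rests on 136 cells, and its exact interval of 1.204% to 8.37% includes both Gran-1 values. The HSCP-2 intervals, 8.38% to 16.7% and 6.23% to 13.3%, lay above those of Gran-1, 1.66% to 3.98% and 0.845% to 2.08%. The Eryth intervals, from 41 and 43 cells, reached 8.60% and 8.22%. For female cMoP, 0 of 39 cells allows a share with a UMI of up to 7.69% by the limit of 3 counts, and up to 9.03% by the exact interval. H2-DMa was found in 57.0% and 51.7% of HSCP-2 cells, 51.3% and 54.6% of cMoP cells and 19.1% and 17.8% of Gran-1 cells. Without the reduction, deep clusters look richer: H2-Ab1 was detected in 45.8% and 32.8% of Gran-1 cells as deposited and in 8.89% and 7.59% at 4000 UMIs, when HSCP-2 had 16.8% and 12.1%.

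H2-Ab1 and H2-Aa, partners in 1 protein, were not in the same proportion across clusters. DC had 1.18 and 1.30 H2-Ab1 UMIs per H2-Aa UMI, with exact counting intervals of 1.09 to 1.28 and 1.21 to 1.39. Gran-1 had 6.28 and 14.6, with intervals of 5.12 to 7.75 and 10.8 to 20.03. Multi-Lin had 20.4 and 6.42, and HSCP-2 3.30 and 2.16, with intervals of 2.27 to 4.90 and 1.53 to 3.10, none of which reached the DC intervals. The 10 cells rich in Cd74 outside DC had 1.21 (1.08 to 1.36), like DC at 1.25, and all other cells outside DC had 8.34 (7.60 to 9.18). Cd74 per H2-Aa UMI differed far less, at 3.05 in DC and 2.56 (2.31 to 2.85) in those other cells. H2-DMa per H2-Aa UMI was 0.0938 and 0.111 in DC and 37.2 in the other cells. These ratios count UMIs, whose capture differs between genes, so they compare clusters and not the chains, and the 10 cells were picked by these transcripts.

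**Figure D5:**
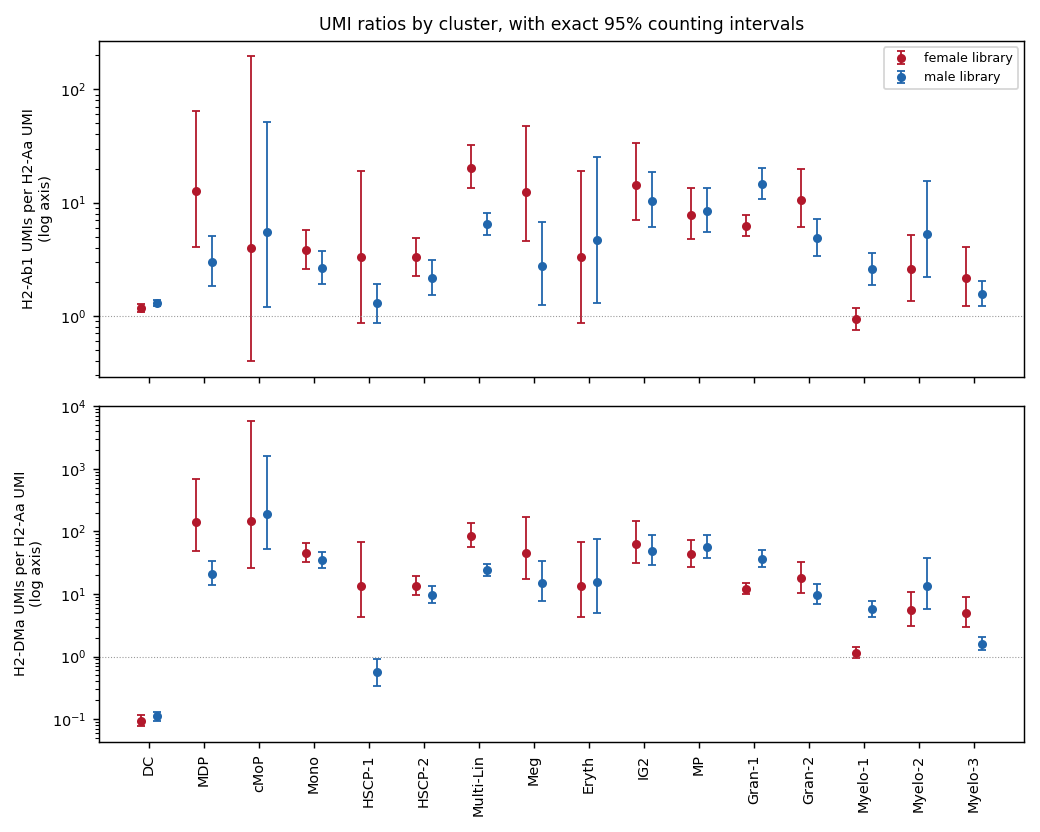
H2-Ab1 (top) and H2-DMa (bottom) UMIs per H2-Aa UMI in 16 clusters (log axes; red female, blue male; bars are exact 95% counting intervals; Myelo-4 had no H2-Aa UMI). DC sits near 1 in the upper and near 0.1 in the lower plot, below nearly all other clusters; female Myelo-1 and male HSCP-1, where 1 cell held most H2-Aa UMIs, come closest in the upper plot.

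Among other class II genes, H2-Oa and H2-Ob followed Cd74 and the classical chains, with HSCP-2 next to DC among the clusters compared. Their fitted differences between DC and HSCP-2 were smaller. H2-Oa and H2-Ob, the chains of the H2-DM inhibitor H2-DO, were at 164 and 83.1 CPM and at 115 and 94.2 CPM in DC. In HSCP-2 they stood at 36.7 and 31.9 CPM (H2-Oa) and 35.4 and 32.4 CPM (H2-Ob), whereas the highest value in MDP, cMoP or Mono was 9.36 CPM for H2-Oa and 4.88 CPM for H2-Ob, both in female MDP. H2-DMb2 did not share this: it had 77.0 and 105 CPM in DC, 2.56 and 5.04 in HSCP-2 and 4.59 to 7.996 CPM in the other comparators. All 3 genes were called higher in DC in all 4 comparisons, 3 of 3 tested each time. Against MDP, cMoP, Mono and HSCP-2, 7.89%, 6.05%, 7.83% and 7.89% of all genes tested were called higher. Against HSCP-2 the log2 differences were 1.87 ± 0.35 for H2-Oa, 1.74 ± 0.36 for H2-Ob and 4.72 ± 0.51 for H2-DMb2. Of the 6 genes listed with them, H2-Eb2 had too few counts for the test, and H2-Ea-ps and H2-Ea were not matched to a row.

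Among regulators of class II transcription, Irf8 and Spi1 were called higher in DC in each comparison, 8 of the 11 tested did not pass, and none was lower. Of all genes tested, 7.89% (MDP), 6.05% (cMoP), 7.83% (Mono) and 7.89% (HSCP-2) were called higher in DC. Irf8 was at 1279 and 1929 CPM in DC, 517 and 550 in MDP, 754 and 727 in cMoP, 555 and 602 for Mono and 25.2 and 24.8 for HSCP-2. Spi1, which encodes PU.1, differed least from cMoP, by 0.63 ± 0.14, and most from HSCP-2, by 2.03 ± 0.15. The Nfyb level, for a subunit of the factor that binds the Y motif, was 28.9 and 49.9 CPM in DC and differed from the comparators by -0.19 to 0.20 on the log2 scale, none passing. Rfx5, which binds the X element, had no UMI in DC, where 3 UMIs would have been 28.9 and 16.6 CPM, and it stood at 3.45 to 10.9 CPM in the comparators. At these depths a difference in Rfx5 was not detectable.

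Of 9 genes of antigen processing, 6 were called higher and 1 lower in DC than in MDP, 4 and 1 against cMoP, 5 and 1 against Mono, and 6 and 2 against HSCP-2. Over all genes tested, 7.89%, 6.05%, 7.83% and 7.89% were called higher in these comparisons, and 9.89%, 8.71%, 11% and 8.12% were called lower. Cathepsin S (Ctss), which degrades the invariant chain, was at 625 and 593 CPM in DC, 60.6 and 73.1 in MDP, 148 and 151 in cMoP, 54.3 and 52.1 for Mono and 22.2 and 18.1 for HSCP-2. The thiol reductase gene Ifi30 was higher in DC by 4.12 ± 0.23, 1.36 ± 0.18, 3.19 ± 0.20 and 6.43 ± 0.29 on the log2 scale. Ctsd, an aspartic protease of lysosomes, was the gene called lower in all 4, at 0 and 22.2 CPM in DC beside 124 to 186 CPM in the comparators. Ctsl was the second lower gene against HSCP-2, by -2.61 ± 0.76. The ubiquitin ligase March1, which lowers surface class II, gave 9.62 and 66.5 CPM in DC, no UMI in MDP and HSCP-2 and at most 8.34 CPM in cMoP. Ctsd, Ctsl and March1 lie outside the rule for named genes and were chosen after their values were seen.

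Of 5 costimulatory genes, 2 had counts enough for the test. Cd86, a ligand of CD28, was called higher in all 4 comparisons and stood at 48.1 and 33.3 CPM in DC, beside 0.407 to 4.27 CPM. At such comparator levels the filter on low counts favours genes high in DC, so the Cd86 calls add little support. Icosl, at 19.2 and 5.54 CPM, did not pass in any. Cd80 and Cd40 gave 1 and 2 UMIs in DC, all male, and Cd83 4 UMIs.

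Of 9 MHC class I genes, 7 were called higher in DC than in MDP, 8 than in cMoP, 8 than in Mono and 5 than in HSCP-2, where 2 were lower. Over all genes tested, 7.89%, 6.05%, 7.83% and 7.89% were called higher, and 8.12% were called lower than in HSCP-2. The median log2 difference of the 9 was 0.81, 1.08, 1.14 and 0.63. H2-D1, a heavy chain, was at 1356 and 1419 CPM in DC and differed by 1.18 ± 0.10, 1.08 ± 0.10, 1.23 ± 0.10 and 0.63 ± 0.09 from MDP, cMoP, Mono and HSCP-2. B2m, the shared light chain, and H2-K1 were the 2 lower genes against HSCP-2, by -0.20 ± 0.07 and -0.89 ± 0.13. Nlrc5, the class I co-activator related to Ciita, had no UMI in DC and at most 7.68 CPM in a comparator. In the interferon response list of 10 genes, 9 were tested, and 5, 5, 6 and 2 were called higher in DC against MDP, cMoP, Mono and HSCP-2, with Rtp4 lower than in HSCP-2. Irf7 was called higher in all 4, at 77.0 and 122 CPM in DC and 1.12 to 25.2 CPM elsewhere. Isg15 was at 0 and 66.5 CPM in DC, so its calls rest on male cells.

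The genes whose levels followed the sum of H2-Aa, H2-Ab1 and H2-Eb1 most closely over 34 sums (17 clusters, 2 libraries; Pearson r of log2(CPM + 1), 3887 genes with at least 50 CPM in a cluster) were Cd74 (r = 0.94), Gcsam (0.91), Klrd1 (0.90), Cd209a (0.90), Slamf8 (0.90), Bcl2a1d (0.90), Ckb (0.89), Shtn1 (0.89), Clec9a (0.89) and Slc46a3 (0.89). Apart from Cd74 these genes passed the minimum of 50 CPM through DC alone, since none exceeded 44.7 CPM in any other cluster and library, so the filter itself favours genes high in DC. The same holds for Ciita. Ciita came 14th (0.87), H2-DMb1 73rd (0.70) and H2-DMa 101st (0.67). Clusters of 1 library share its depth and preparation, and the likeness depends on the 2 DC sums. Without them r was 0.79 for Cd74 and 0.26 for Ciita, and 2 of the 10 genes remained among the first 10, Cd74 and Gcsam. From the female library alone 2 of the 10 remained, and from the male library alone 9. Male HSCP-1, where 1 cell held 136 of the 139 UMIs of the 3 chains, stayed among the sums without DC and in the male library. What would remain without that cell was not tested.

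Antibody tags gave the surface proteins of the same DC cells, with tags of both sexes sequenced as 1 pooled library and no replicate. CD11b, an integrin of myeloid cells, had a median count of 1058 and 616 in DC, 109 and 63.5 in MDP, 200 and 135 in cMoP, 222 and 129.5 for Mono and 202 and 129 for HSCP-2, and DC ranked 6th of 17 clusters. CD117 had medians of 157 and 88 in DC, below MDP with 235 and 114 and HSCP-2 with 369.5 and 263, and above cMoP with 51 and 31. Ly-6C, a monocyte protein, was at 939 and 762, which is 0.0431 and 0.0725 of the medians in cMoP. As the deposited log share of a cell's 4 tags, the same difference was -0.95 and -0.60 on the natural log scale, so its size depends on the scale. For CD11b against cMoP the medians differed 5.29-fold and 4.56-fold by count and by 3.75 and 3.12 in natural log share. Ly-6G, a granulocyte protein, was at 130 and 120.5. Cells of the female and the male library had the same direction in all 16 pairs of antibody and comparator, by count, and no test was run. None of the 4 antibodies recognises class II, so its surface level was not measured.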

How the data were processed

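Transcripts of wild-type C57BL/6 marrow cells were measured in 1 female and 1 male library, and antibody tags in 1 pooled library. Cell Ranger 2.1.0 and mm10 are named in the submitters' processing notes. Which annotation, cell calling, clustering and doublet steps were used was not given in these sources. The deposited UMI counts are raw and cover 28692 genes by ID, each cell with the cluster name the authors gave it. The authors also deposited antibody counts and natural log values of them, which they call a centred log ratio. All 44528 of those log values equalled ln((count + 1)/(sum of 4 counts + 1)) within 1e-08. Total UMI counts were 91448433 (female) and 124967351 (male). Symbols matched 28339 IDs, and the 353 others held 0.0230% of UMIs.

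Cells are not replicates, so counts were summed per library and cluster. The sums of DC, MDP, cMoP, Mono and HSCP-2 (10 sums, 4 residual degrees of freedom) were fitted by the quasi-likelihood test of edgeR (4.0.16, under R 4.3.3) with TMM scaling, filterByExpr, the library as covariate and Benjamini-Hochberg adjustment over 10011 genes. An SE is the size of the log2 change divided by the root of its F value. The female and male libraries were taken as 2 wild-type replicates. How many mice each holds is not stated, so p-values speak only for these libraries. They rest on the spread left after the library term, estimated with all genes, and not on the whole gap between the libraries. For Cd74 against MDP the SE was 0.094, and 0.374 without the library term. The common biological coefficient of variation was 0.0320. The fit was tested on simulated data with known changes in DC. Over the 4 comparisons it recovered 14.9% to 19.4% of log2 changes of 1 and 38.8% to 43.3% of changes of 2. Of changes of 4 it recovered 75.8% to 78.8%, with 6 to 9 false calls among 9811 unchanged genes. Genes that did not pass, such as Nfyb and Icosl, may therefore still differ. The filter kept 9468 genes of the simulated data, and those it dropped were counted as not called. The simulation held no difference between the libraries, so it cannot show how the test behaves with the library gaps seen here. CPM is not scaled by TMM. Intervals are exact (95%), the floor is 3 counts, and shares of cells were also taken after thinning every cell to 4000 or 2000 UMIs. No cell was removed. Other software was Python 3.11.15 with scipy 1.17.1, pandas 2.3.3 and numpy 2.4.6, and DESeq2 1.42.0 as an alternative. Promoter sequences are RefSeq's for GRCm38.p6.

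The genes and lists were chosen with earlier results of these data known. The rule for named genes took the 7 genes, up to 4 members of each list by mean CPM, the 5 largest changes each way per comparison (mean CPM of 50 or more, same sign in both libraries) and the 10 most similar patterns; the text gives those that bear on class II. Some members of the fixed lists are not reported here.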

Additional observations from a re-analysis of the deposited data

How the results depend on the processing

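All 7 genes were called higher in DC in each comparison with DESeq2, without TMM, without the filter, without the replicate block (the library term), with 2 clusters only, and without deep cells, shared barcodes or the cells richest in Cd74. After thinning to 4000 UMIs 6 of 7 were called, because Ciita fell below the filter. In each library alone, with no test, 7 of 7 were higher. Of 326 single values, 299 kept their call or lay within the spread of the libraries, 27 moved by more, and none reversed. For values of 1 library alone, that spread came from the same 2 libraries. Lying within it was nearly fixed beforehand, so for these values it shows no stability. The Cd74 level in DC was 25818 to 31766 CPM with 1 library left out. Cells outside DC with at least 2 of the 3 classical chains numbered 263, against 42 with all 3. Among the 10 most similar genes, 2 remained without the DC sums, and 2 to 9 with 1 library left out. DC was higher in both libraries in 10 of 16 antibody contrasts by count and in 9 by log share. Calls over all genes fell with thinning from 1780 to 959 (MDP), 1478 to 712 (cMoP), 1881 to 1076 (Mono) and 1603 to 930 (HSCP-2), where 6101 instead of 10011 genes were tested. In edgeR, higher against lower calls were 790 to 990 (MDP), 606 to 872 (cMoP), 784 to 1097 (Mono) and 790 to 813 (HSCP-2). With DESeq2 they were 927 to 538, 708 to 454, 1001 to 621 and 861 to 386, with a median log2 change of 0.23 over all genes for Mono in place of -0.30 and of 0 for the other 3 clusters. Without TMM, Mono gave 901 to 856 and HSCP-2 705 to 1089, with medians of -0.16 and of -0.43 in place of -0.31. Depth limits Ciita, Rfx5 and the costimulatory genes.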
